A study of Mus musculus with 9 samples.

Results

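The nuclei described here are the control proximal tubule nuclei that carried transcripts of the early segments, S1 and S2. A control nucleus was counted as a member when its UMIs (unique molecular identifiers, each marking 1 captured RNA molecule) of Slc5a12, Slc5a2 and Slc6a19 summed to 3 or more and exceeded its UMIs of the S3 genes Cyp7b1, Slc22a19, Slc22a7 and Slc7a13. The rule selected 5002 of 13116 control nuclei, in a series of 27738 nuclei. They were 2209 nuclei (48.4% of the library) of sham mouse 1, 302 (12.5%) of sham mouse 2, 1171 (46%) of sham mouse 3 and 1320 (36.8%) of the non-surgery mouse. A further 2149 control nuclei passed the mirror-image S3 gate, and 5965 passed neither.

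The study sorted GFP-positive kidney nuclei of male mice, aged 11 to 19 weeks, for single-nucleus RNA sequencing. The tested animals of the series had ischemia-reperfusion injury (IRI): Krt20T2A-CE; INTACTnuGFP/+ mice given tamoxifen (0.05 mg/g), with both renal pedicles clamped for 18 min, and harvested at day 7 (n = 2) or day 28 (n = 3). Their reporter is limited to cells that expressed Krt20, a keratin of injured tubule, and to the descendants of those cells. The controls were 3 sham-operated mice and 1 mouse without surgery, all Six2TGC; Rosa26rtTA; pTRE-H2BeGFP animals on doxycycline food (625 mg/kg). In these mice the driver is Six2, a gene of nephron progenitors, so the GFP marks nuclei of the nephron and not of vessels, stroma or blood. Each library was 1 mouse.

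The proximal tubule takes back most of what the glomerulus filters. Its first segments, S1 and S2, reabsorb glucose through the high-capacity carrier SGLT2 (Slc5a2), neutral amino acids through B0AT1 (Slc6a19), lactate and other monocarboxylates through SMCT2 (Slc5a12), and phosphate, bicarbonate and filtered protein. The last segment, S3, lies in the outer medulla, recovers what remains with other carriers, and in male mice is known for a set of androgen-dependent transcripts.

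The control libraries held 9622439, 1833617 and 4982300 UMIs for sham mice 1, 2 and 3 and 7029488 for the non-surgery mouse. Sham mouse 2 stood apart, with a median of 668 UMIs per nucleus against 1722 to 1938 in the other controls, and only 40 of its 302 members had 1000 UMIs or more. Its members held so few UMIs that 1 UMI of Cyp7b1 was worth 4.61 CPM (counts per 1000000, here the share of a gene in all UMIs of the summed nuclei, scaled to that total). Between 20 and 52 nuclei per control library shared their barcode with a nucleus of another control library, and 0 to 12 per library were members that shared it with another member. Malat1 took 21% to 25.5% of the members' UMIs and mitochondrial transcripts 0.0876% to 0.209%. Counts made with and without sham mouse 2 are given with each main comparison.

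Because the gate counts UMIs, its 7 genes are a description and were not tested in the comparisons of members with other nuclei. Slc5a12 supplied 44032 of the 53138 gate UMIs (82.9%), Slc5a2 8.64% and Slc6a19 8.49%. These are shares of UMIs, which were not scaled by transcript length. Slc5a12 was seen in 98% of members, Slc5a2 in 53.5% and Slc6a19 in 54.6%. UMIs of all 3 genes were present in 29.2% of members, of 2 genes in 47.7% and of 1 gene in 23.1%. The gate therefore rested mostly on Slc5a12, and 1100 members had it alone. None of the 4 S3 genes had a UMI in 79.9% of members. The median gate sum was 9 and the highest 65. At the edge of the rule, 475 members had a sum of exactly 3 and a median of 1251 UMIs, while 542 nuclei stayed outside with a sum of 2 and a median of 1462.5 UMIs. A further 177 nuclei reached 3 or more but did not exceed their S3 sum.

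Slc5a12 stood at 5352, 4088 and 3993 CPM in the members of sham mice 1, 2 and 3 and at 4069 CPM in those of the non-surgery mouse, against 127 to 239 CPM in the other control nuclei. Slc5a2 had 379, 719, 515 and 619 CPM in the members, in the same order, against 28.7 to 76.7 CPM outside. Slc6a19 had 359, 830, 653 and 503 CPM, against 113 to 154 CPM. In no library did the 2 groups of nuclei overlap, which the gate fixes. Slc6a19 and Slc5a2 each overlap a gene on the opposite strand, Slc6a19os and BC017158, and the strand setting of the counting is not given in the sources used here.

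**Figure D1:**
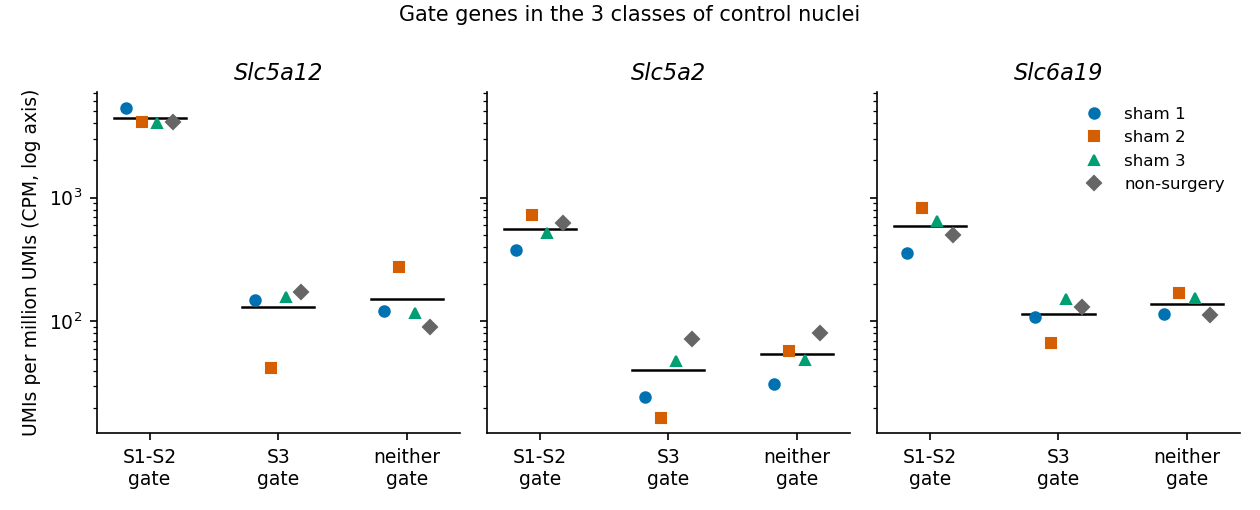
CPM (log axis) of the 3 S1-S2 gate genes in the nuclei that passed the S1-S2 gate, the S3 gate or neither, with 1 point per control library and a bar at the mean of the 4. Slc5a12 averaged 4376 CPM in members, 130 CPM in S3-gated nuclei and 150 CPM in nuclei of neither gate. The separation is set by the gate.

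Free RNA puts UMIs into nuclei that do not transcribe a gene, so the same genes were counted in 707 nuclei gated on thick ascending limb genes (Umod, Slc12a1, Cldn16 and Kcnj1, with 3 or more UMIs in sum), which lie in another tubule segment. Only nuclei that passed neither the S1-S2 nor the S3 gate were taken. The rule therefore holds the shares in thick ascending limb nuclei down, and they are not an independent measure of free RNA. There Slc5a12 had a UMI in 8.49% of nuclei, Slc5a2 in 5.94% and Slc6a19 in 6.36%, at a median of 1054 UMIs against 1712 in members. With each nucleus thinned to 1000 UMIs the shares were 94.7%, 36.5% and 36.2% in members, against 7.09%, 4.05% and 5.57% in thick ascending limb nuclei. Of the S3 genes, Slc7a13 had a UMI in 16.3% of members and in 13.3% of thick ascending limb nuclei, and after thinning in 9.52% and 9.87%. The rule holds this share down in both groups of nuclei. The libraries also went opposite ways after thinning, with 8.46% in members and 19.4% in thick ascending limb nuclei of sham mouse 1. In sham mouse 3 the shares were 11.5% and 7.55%, so nothing is read from them.

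Whether each gate gene marks the nuclei chosen by the other 2 was tested by leaving it out of the rule. In nuclei gated on the other 2 genes, Slc5a2 was higher than in the remaining control nuclei by 2.74 on the log2 scale (SE 0.10, adjusted p = 2.7e-23, edgeR quasi-likelihood test with the library as a block). Slc5a12 was higher by 1.57 (SE 0.12, adjusted p = 4.8e-39) and Slc6a19 by 1.57 (SE 0.09, adjusted p = 8e-22), by the same edgeR test. The gate without Slc5a12 took 441, 35 and 406 nuclei of sham mice 1, 2 and 3 and 492 of the non-surgery mouse. Without Slc5a2 it took 2165, 246, 1113 and 1250 in the same order, and without Slc6a19 2133, 228, 1087 and 1250. Members that a reduced gate missed stood among the remaining nuclei, so the sizes of these differences cannot be compared between genes. The Slc5a12 difference lost the call without the block (adjusted p = 0.145).

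Members were first set against all other control nuclei of the same libraries, over 12438 genes outside the gate. Several transporters and enzymes of the early tubule were higher, and many genes of S3 and of other nephron segments were lower. The edgeR test called 1058 genes (8.51%) higher and 1402 (11.3%) lower at an adjusted p of 0.05, or 19.8% in all, with a median log2 difference of 0.0043 over all genes. Without sham mouse 2 the counts were 1063 and 1407, and 980 of the 1058 and 1317 of the 1402 genes were shared. When the S3-gated nuclei were left out of the other group, an alternative chosen after seeing the data, 695 genes were higher and 1103 lower.

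Gldc, the glycine decarboxylase of the glycine cleavage system, was among the largest rises and varied between mice, with 437, 50.7 and 57.2 CPM in sham members and 321 CPM in non-surgery members, against 43.4, 6.8, 6 and 22 CPM outside. Its log2 difference was 3.61 (SE 0.13, adjusted p = 3.4e-19) and it was higher in all 4 libraries. Sham mouse 1 and the non-surgery mouse were high in both groups of nuclei, and sham mice 2 and 3 were low in both.

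Further named rises included Ablim3, an actin-binding LIM protein, at 22.6 ± 4.68 CPM in members and 2.66 ± 0.90 CPM outside (SD, n = 4 libraries each), and Slc34a3, the phosphate carrier NaPi-IIc, at 54.6 ± 24.6 against 7.43 ± 3.30 CPM. Angpt1, the ligand of the endothelial receptor Tie2, stood at 190, 36.9 and 189 CPM in sham members and 196 CPM in non-surgery members, against 12.7 to 37.3 CPM outside. Spp2, a secreted phosphoprotein, averaged 38.0 ± 15.9 against 5.06 ± 1.85 CPM. Gpat3, an acyltransferase of triglyceride synthesis, averaged 53.3 CPM in members and 11.6 CPM outside. Log2 differences of these 5 genes ran from 2.81 for Gpat3 to 3.31 for Ablim3, each higher in 4 of 4 libraries.

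The largest falls were in Mro, Ido2 (a tryptophan-degrading dioxygenase), C8a (a complement subunit), AC163354.1, Vmn1r20 (a vomeronasal receptor gene), Esr1 (estrogen receptor alpha), Glt1d1 and Mep1b (the brush border protease meprin beta). Esr1 is the most steadily measured of them, at 16.2, 13.8 and 15.8 CPM in sham members and 11.3 CPM in non-surgery members, against 118, 95.3, 118 and 98.2 CPM outside. Its log2 difference was -2.82 (SE 0.12, adjusted p = 5.6e-17). The other 7 had log2 differences from -2.72 for Mep1b to -3.97 for Mro and were lower in all 4 libraries. Glt1d1 overlaps Slc15a4 on the other strand.

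Of 18 genes that all proximal tubule segments share, 10 were higher and 5 lower in members. Slc34a1, the main phosphate carrier NaPi-IIa, averaged 5169 ± 757 CPM in members and 3483 ± 708 CPM in other nuclei (log2 difference 0.68, SE 0.09, adjusted p = 7.9e-07). Miox, of inositol breakdown, and Slc13a1, the sulfate carrier, were higher by 1.01 and 0.70 on the log2 scale. Lrp2, the endocytic receptor megalin, averaged 1502 ± 133 against 1384 ± 184 CPM (log2 difference 0.24, adjusted p = 0.0485). Hnf4a, a nuclear receptor that maintains proximal tubule identity, averaged 217 ± 45.6 against 186 ± 32.3 CPM (log2 difference 0.31, adjusted p = 0.0121). The call for Lrp2 ended in 8 of the alternative fits and that for Hnf4a in 5, among them the fit on nuclei of 1000 UMIs or more (adjusted p = 0.735 and 0.238).

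Many markers of other cell types were lower in members. All 7 tested genes of the thick ascending limb list were lower, among them the salt carrier gene Slc12a1, at 226 ± 116 CPM in members and 697 ± 570 CPM outside, and Umod, at 79.5 ± 13.7 against 167 ± 46 CPM. Of 8 thin limb genes 6 were lower, of 8 distal convoluted tubule genes 5, of 8 connecting tubule and principal cell genes 4, of 5 intercalated cell genes 4 and of 5 endothelial genes 3, with no gene of these lists higher. Summed levels of the thick ascending limb list were 388 to 771 CPM in members and 714 to 2892 CPM in other nuclei. Those of the distal convoluted tubule list were 1027 to 1296 and 1167 to 1767 CPM, and the ranges of both lists overlapped. No marker of these lists was at 0 in the members as a whole.

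Of 7 podocyte genes 4 were lower and Magi2, a scaffold protein of the podocyte slit diaphragm, was higher. Magi2 averaged 1088 ± 510 CPM in members and 457 ± 268 CPM outside (log2 difference 1.43, SE 0.13, adjusted p = 4e-10). The slit diaphragm gene Nphs1 averaged 1.38 CPM in members and 5.29 CPM outside, and Ptpro, another podocyte gene, 2.07 and 9.20 CPM. The Nphs1 call was lost without the non-surgery mouse (adjusted p = 0.0617). The summed podocyte list was therefore higher in members, at 452 to 1549 CPM against 309 to 909 CPM, and Magi2 made up 1088 of its mean of 1109 CPM. Of the tested leukocyte genes, Csf1r averaged 1.64 CPM in members and 16.6 CPM outside.

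Of 16 failed-repair genes, which mark incompletely repaired tubule, 11 were lower and none higher (median log2 difference -0.98), with Cdh6, a cadherin, at 6.46 ± 5.31 against 42.1 ± 24.6 CPM and Pdgfd, a growth factor, at 16.7 ± 9.34 against 62.8 ± 42.3 CPM. Il34, a macrophage growth factor, averaged 51.9 ± 15.8 CPM in members and 128 ± 18.4 CPM outside. Of 19 injured tubule genes 8 were lower and Itgb6 was higher, and the summed level of that list overlapped between members (733 to 1050 CPM) and other nuclei (819 to 1132 CPM). Vcam1, an adhesion molecule of injured tubule, had 22 UMIs in all members and averaged 2.13 against 8.73 CPM. Its call was lost with a gate of 2 UMIs (log2 difference -0.65, adjusted p = 0.261). The other nuclei hold other nephron segments in unknown proportion, and the part of those segments in these differences was not tested.

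Members were next set against the 2149 S3-gated nuclei, a comparison within the proximal tubule. Genes higher in members included Gatm and Gldc of creatine and glycine metabolism, the bicarbonate carrier gene Slc4a4 and both phosphate carriers, and most tested genes of the S3 and androgen lists were lower. The edgeR test called 1053 of 11232 genes (9.38%) higher and 1125 (10%) lower, or 19.4% in all, with a median log2 difference of 0.0038. Without sham mouse 2 it called 1010 and 1182, of which 970 and 1065 were shared. Without the non-surgery mouse, 677 were higher and 804 lower. Since S3-gated nuclei are part of the other nuclei above, the 2 comparisons are not independent.

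Members were shallower, with a median of 1712 UMIs against 2325 in S3-gated nuclei. Of 9 nuclear and mitochondrial transcripts, 8 were higher in members, by at most 0.51 on the log2 scale. Malat1 took 21% to 25.5% of UMIs in members and 18.5% to 21.6% in S3-gated nuclei. The part of depth and RNA composition in the gene differences was not tested beyond the fit on nuclei of 1000 UMIs or more, which called 977 genes higher and 1184 lower and shared 950 and 1091 of the calls above.

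The named rises over S3 included Ablim3, Gldc, Itpr2, Gpat3, Slc34a3 and Ttc28. Itpr2, the type 2 receptor for inositol trisphosphate, which releases stored calcium, was the steadiest, at 563, 701 and 459 CPM in sham members and 457 CPM in non-surgery members, against 52.7, 45.9, 38.5 and 42.4 CPM in S3-gated nuclei. Its log2 difference was 3.57 (SE 0.11, adjusted p = 1.6e-22), and no member value came near an S3 value. The remaining 5 had log2 differences from 3.35 for Ttc28 to 4.19 for Ablim3. Gpat3 overlaps 4930458D05Rik on the opposite strand.

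The 8 greatest falls were in Mro, Ido2, C8a, AC163354.1, Vmn1r20, Spats2l, Mep1b and Esr1. Mep1b stood at 5.41, 18.4 and 6.05 CPM in sham members and 5.63 CPM in non-surgery members, against 43.5, 146, 116 and 120 CPM in S3-gated nuclei, a log2 difference of -3.73 (SE 0.19, adjusted p = 2.8e-17). Esr1 stood at 16.2, 13.8, 15.8 and 11.3 CPM, against 210, 371, 181 and 161 CPM, a log2 difference of -3.66 (SE 0.12, adjusted p = 2.7e-21). Ido2 and C8a had 13 and 17 UMIs in all 5002 members, and their log2 differences were -4.76 and -4.43. For each of the 8 the member values lay below the S3 values in every library.

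**Figure D2:**
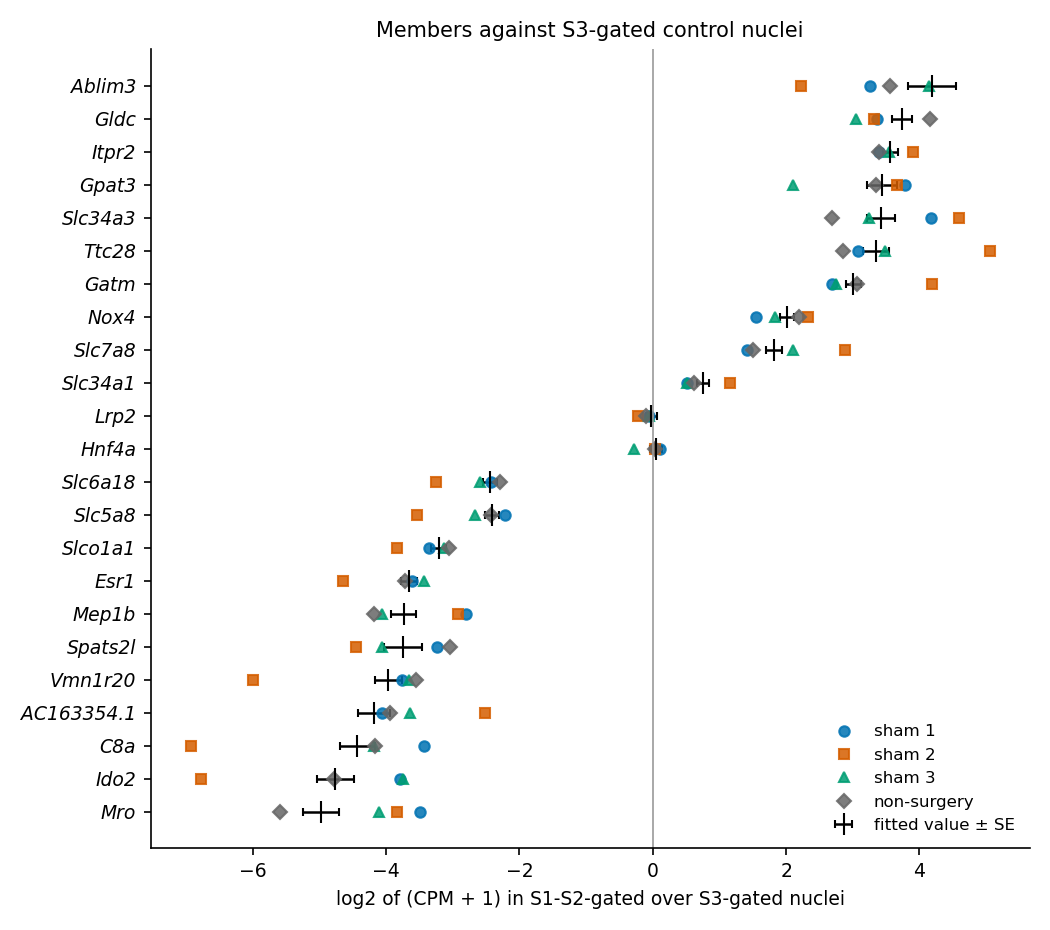
Log2 ratio of CPM + 1 in S1-S2-gated over S3-gated nuclei for named genes, with 1 symbol per control library and a black tick at the fitted log2 difference with its SE. Genes above Lrp2 lie to the right of 0 and genes below Hnf4a to its left. For Slc6a18, Slc5a8, Slco1a1, Esr1, Spats2l, Vmn1r20, C8a and Ido2 the symbol of sham mouse 2 lies to the left of those of the other 3 mice.

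Among the 23 tested S1-S2 genes outside the gate, 13 were higher and 6 lower than in S3-gated nuclei (median log2 difference 0.59). Gatm, the first enzyme of creatine synthesis, stood at 1010, 1088 and 1468 CPM in sham members and 1047 CPM in non-surgery members, against 157, 58.4, 217 and 125 CPM in S3-gated nuclei, a log2 difference of 3.01 (SE 0.11, adjusted p = 2.6e-20). Nox4, an oxidase that makes hydrogen peroxide, averaged 3281 ± 568 CPM in members and 878 ± 363 CPM in S3-gated nuclei, a log2 difference of 2.01. The 6 listed genes that went the other way were Slc6a18, Slc5a10, Slc22a6, Slc22a12, Slc6a20b and Pck1. Slc6a18, the neutral amino acid carrier B0AT3, stood at 76, 120 and 71.2 CPM in sham members and 173 CPM in non-surgery members, against 413, 1152, 432 and 846 CPM in S3-gated nuclei, a log2 difference of -2.44 (SE 0.10, adjusted p = 2.3e-19). Of 25 S3 genes outside the gate 22 were lower and Acsm2 was higher (median log2 difference -1.42).

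Carriers for glucose and monocarboxylates divided by segment. Slc2a2, which encodes GLUT2, the basolateral exit for glucose, averaged 195 ± 53.5 CPM in members and 93.8 ± 33.9 CPM in S3-gated nuclei, a log2 difference of 1.09 (SE 0.10, adjusted p = 8.1e-11). Slc5a1, the low-capacity glucose carrier SGLT1 of the late tubule, averaged 11.3 ± 2.07 against 39.1 ± 9.47 CPM, a log2 difference of -1.69. Slc5a10, which carries fructose and mannose, averaged 114 ± 29.7 against 212 ± 54.4 CPM, and Slc5a8, the monocarboxylate carrier SMCT1, 61.7 ± 17.1 against 402 ± 63.7 CPM. In the whole list of 18 glucose and fructose genes 5 were higher and 5 lower.

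Of 18 amino acid transport genes 9 were higher and 8 lower, and the summed level of the list was 3797 to 4434 CPM in members and 4803 to 7081 CPM in S3-gated nuclei. The higher ones included carriers of the basolateral membrane. Slc7a8, which encodes LAT2, averaged 401 ± 108 CPM in members and 102 ± 28.4 CPM in S3-gated nuclei (log2 difference 1.81). Slc7a7, the light chain y+LAT1, averaged 467 ± 171 against 138 ± 67.3 CPM (log2 difference 1.71), and Slc16a10, the aromatic amino acid carrier TAT1, 254 ± 63.6 against 78.6 ± 17.9 CPM (log2 difference 1.78). The lower ones included Slc6a18 and the apical genes Slc1a1, Slc3a1 and Slc6a20a.

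Of 26 genes for sodium, phosphate, bicarbonate and water 10 were higher and 2 lower. Slc4a4, the basolateral bicarbonate exit NBCe1, averaged 1863 ± 502 CPM in members and 1064 ± 444 CPM in S3-gated nuclei (log2 difference 0.90, SE 0.09, adjusted p = 6.8e-10). Carbonic anhydrase genes Car12 and Car14 were higher by 1.40 and 1.38. Both phosphate carriers were higher: Slc34a1 averaged 5169 ± 757 against 3172 ± 407 CPM (log2 difference 0.76, SE 0.09, adjusted p = 6.9e-08), and Slc34a3 54.6 ± 24.6 against 4.82 ± 5.23 CPM (log2 difference 3.42, SE 0.21, adjusted p = 1.1e-14). The 2 lower genes were the water channel gene Aqp1 and Fgfr1.

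Of 22 genes for endocytosis and vitamin uptake 10 were higher and Snx31 was lower. They included Dab2, an adaptor of megalin, at 5629 ± 1057 CPM in members and 4094 ± 1460 CPM in S3-gated nuclei (log2 difference 0.57), Amn, a partner of the vitamin B12 receptor (0.55), Tcn2, the B12 carrier protein (0.55), and Lgmn, a lysosomal protease (0.87). Lrp2 itself did not pass the test, at 1502 ± 133 against 1616 ± 113 CPM (log2 difference -0.02, SE 0.08, adjusted p = 0.897). Hnf4a did not pass it either, at 217 ± 45.6 against 222 ± 47.3 CPM (log2 difference 0.04, SE 0.09, adjusted p = 0.83).

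Of 27 organic ion and drug carriers 7 were higher and 14 lower. Slco1a1, an organic anion carrier, stood at 28.9, 4.61 and 27.4 CPM in sham members and 13.9 CPM in non-surgery members, against 303, 79.3, 248 and 123 CPM in S3-gated nuclei, a log2 difference of -3.21 (SE 0.12, adjusted p = 7e-21). Slco1a6, of the same family, averaged 305 ± 82.8 against 850 ± 157 CPM. Abcc4, an apical exporter, was higher at 50.6 ± 5.93 against 13.8 ± 4.77 CPM (log2 difference 1.91). Slc22a29 was also called higher (log2 difference 3.13) but shares near-identical sequence with Slc22a28 and Slc22a30, so reads of the 3 may have been split among them and their values are uncertain.

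The organic anion carriers OAT1 (Slc22a6) and OAT3 (Slc22a8), which bring drugs and urate into the tubule cell from blood, lie side by side on chromosome 19 and differed in direction. Slc22a8 averaged 104 ± 51.9 CPM in members and 35.2 ± 21.6 CPM in S3-gated nuclei (log2 difference 1.16, SE 0.15, adjusted p = 1.6e-07). Slc22a6 averaged 124 ± 7.95 against 185 ± 38.0 CPM (log2 difference -0.46, SE 0.10, adjusted p = 7.1e-04).

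Enzymes divided in a like manner. Of 28 genes for amino acid and creatine metabolism 11 were higher and 8 lower. Besides Gatm and Gldc, Prodh2, which oxidizes hydroxyproline, was higher, at 307 ± 91.5 CPM in members and 107 ± 29.6 CPM in S3-gated nuclei (log2 difference 1.45). Aadat, an aminotransferase of lysine and kynurenine breakdown, was lower at 240 ± 58.8 against 673 ± 195 CPM (log2 difference -1.39). Of 33 fatty acid oxidation and peroxisome genes 6 were higher and 15 lower. The lower ones included the peroxisomal genes Crot (log2 difference -1.38), Acox2 (-1.60) and Ehhadh (-1.24), and Acsm3, a medium-chain acyl-CoA synthetase, at 57.0 ± 25.6 against 372 ± 74.4 CPM (-2.54).

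Of 17 androgen-responsive genes 13 were lower in members and none higher (median log2 difference -0.96), and without sham mouse 2 the count was 14. Kap, the kidney androgen-regulated protein, stood at 1217, 475 and 1433 CPM in sham members and 467 CPM in non-surgery members, against 3280, 3238, 4687 and 1929 CPM in S3-gated nuclei (log2 difference -1.82, SE 0.12, adjusted p = 1.7e-14). Nudt19 averaged 46.2 ± 24.0 against 137 ± 62.7 CPM. Several genes of this list, such as Slco1a1, Acsm3 and Serpina1f, also stand in the S3 list, so the 2 counts overlap.

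Of 13 genes for the renin-angiotensin system and peptide handling 3 were higher and 8 lower. Ace, the angiotensin-converting enzyme, averaged 6.23 ± 2.66 CPM in members and 31.1 ± 13.3 CPM in S3-gated nuclei (log2 difference -1.91), and the meprin alpha gene Mep1a 104 ± 14.2 against 243 ± 42.6 CPM (-1.13). The higher genes included Enpep and Agtr1a. Of 20 glutathione and conjugation genes 4 were higher and 8 lower. Gpx3, the secreted glutathione peroxidase, averaged 3529 ± 833 against 1815 ± 381 CPM (log2 difference 1.02), while Gclm, a subunit of the enzyme that starts glutathione synthesis, averaged 109 ± 9.93 against 231 ± 28.5 CPM (-1.02), and the oxygenase gene Fmo5 109 ± 73.0 against 282 ± 121 CPM (-1.47).

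Of 25 transcription factors of the proximal tubule 9 were higher and 7 lower. Maf stood at 851, 1498 and 1394 CPM in sham members and 882 CPM in non-surgery members, against 436, 442, 761 and 434 CPM in S3-gated nuclei (log2 difference 1.15, SE 0.10, adjusted p = 1.9e-11). Bcl6, Trps1 and Thrb (a thyroid hormone receptor) were lower by log2 differences of -1.05, -0.82 and -0.74. Among markers of other segments, none of 5 thick ascending limb genes, 6 connecting tubule and principal cell genes or 4 intercalated cell genes passed the test, and Slc12a1 averaged 226 ± 116 against 217 ± 160 CPM. Of 7 distal convoluted tubule genes Klhl3 was higher (log2 difference 0.73), and of 4 podocyte genes Magi2 was higher, at 1088 ± 510 against 217 ± 102 CPM (log2 difference 2.39, SE 0.09, adjusted p = 4.8e-20). Of 13 failed-repair genes 5 were higher (Dock10, Pdgfb, Relb, Nfkb1 and Psd3) and 3 lower (Dcdc2a, Il34 and Pdgfd). Without the non-surgery mouse the calls for Dock10, Pdgfb, Relb and Nfkb1 were lost (adjusted p from 0.0809 to 0.482), and that for Pdgfd was lost without sham mouse 1 (adjusted p = 0.394). The 3 called endothelial genes, Flt1, Emcn and Ptprb, and Csf1r of the leukocyte list were lower in members, with Csf1r at 1.64 against 42.7 CPM. Without sham mouse 1 the calls for Flt1, Emcn and Ptprb were lost (adjusted p = 0.216, 0.834 and 0.253). Of 11 injured tubule genes 4 were higher in members (Spp1, Icam1, S100a6 and Itgb6). Spp1 averaged 91.6 ± 24.0 against 56.8 ± 25.9 CPM, and without the non-surgery mouse Icam1, S100a6 and Itgb6 lost their calls (adjusted p = 0.498, 0.516 and 0.145). In the lists above, the calls for Slc6a20b, Slc1a1, Slc6a20a, Acsm2 and Enpep were lost without that mouse too (adjusted p from 0.0675 to 0.187).

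**Figure D3:**
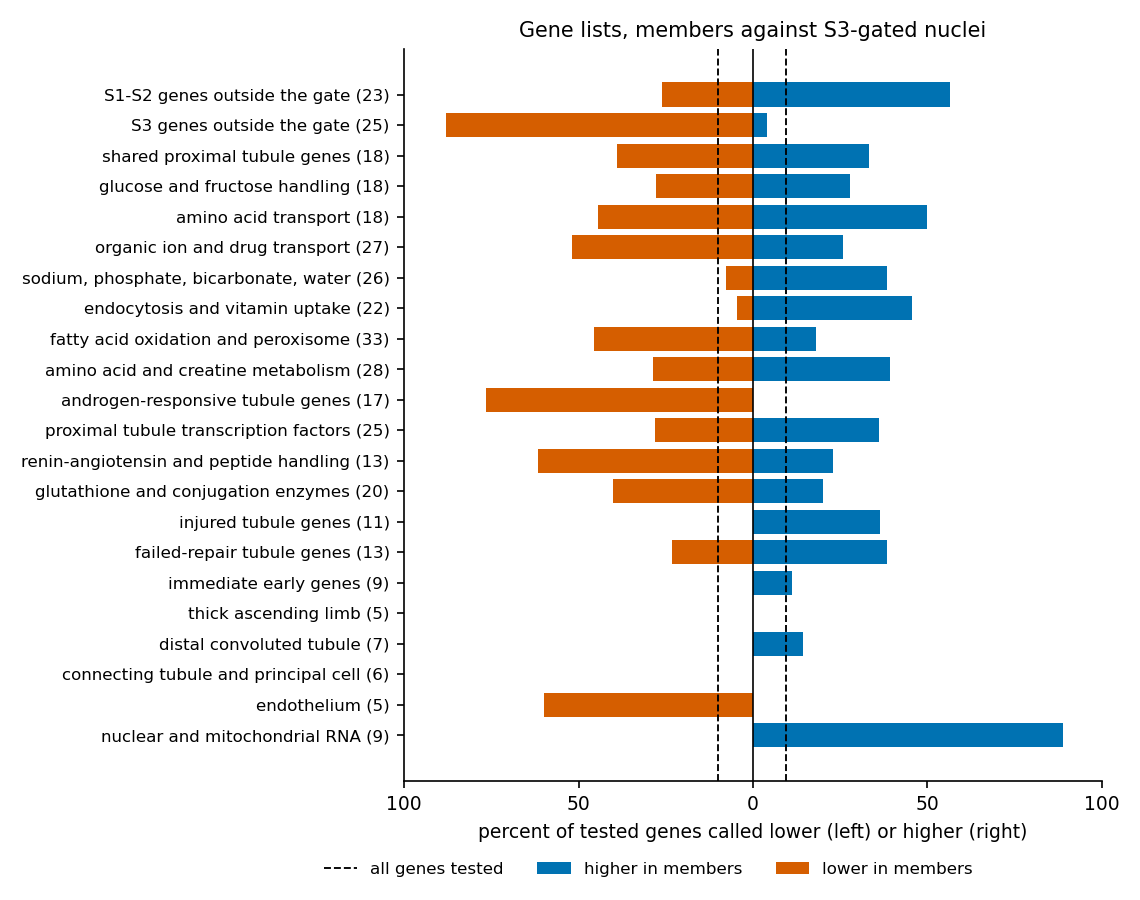
Share of the tested genes of each list that were called higher (right, blue) or lower (left, orange) in members than in S3-gated nuclei, with the number tested in parentheses and dashed lines at the shares over all genes tested (9.38% and 10%). Lists with fewer than 5 tested genes are left out. The S3 list, with 22 of 25 genes lower, has the longest bar to the left among lists of 10 genes or more.

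Members differed among themselves in Slc5a2. To split nuclei at 1 depth, each of the 4308 members with 1000 UMIs or more was thinned to 1000 UMIs. Those that kept a UMI of Slc5a2 were set against those that kept none, by sums of their unthinned counts. The Slc5a2-positive members had more RNA of several other early segment genes, such as Nox4 and Gatm, and the Slc5a2-negative members more of several S3 genes, although both groups had passed the same gate. Of 9435 genes outside the gate edgeR called 146 higher (1.55%) and 143 lower (1.52%), or 3.06% in all, and without sham mouse 2, which had 13 positive and 27 negative nuclei, 141 and 165. The counts were 70 and 71 without the non-surgery mouse, 68 and 75 without sham mouse 1, and 110 and 93 without sham mouse 3. With no block for the library none was called.

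Angpt1 stood at 273, 60.1 and 247 CPM in Slc5a2-positive sham members and 301 CPM in non-surgery members, against 153, 0, 127 and 110 CPM in negative members, a log2 difference of 1.08 (SE 0.09, adjusted p = 4.7e-30). It was higher in all 4 libraries, and in sham mouse 2 the 60.1 CPM were 1 UMI. Spp2 (log2 difference 1.06), Epb41l3, a cytoskeletal protein (0.99), and the RNA gene Snhg11 (0.98) were higher too. Zfp335os and Stat2 passed the test with adjusted p of 0.0232 and 0.0272 and lost the call without sham mouse 1 (adjusted p = 0.748 and 0.501), without sham mouse 3 (0.132 and 0.0957) and without the non-surgery mouse (0.0502 and 0.267).

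On the other side, Csgalnact1, an enzyme of chondroitin sulfate synthesis, stood at 115, 0 and 118 CPM in positive sham members and 77 CPM in non-surgery members, against 244, 307, 204 and 193 CPM in negative members (log2 difference -1.07, SE 0.10, adjusted p = 4e-22). Cd36, a fatty acid uptake protein, averaged 41.0 ± 30.2 against 128 ± 32.2 CPM (log2 difference -1.28). Sntg2 (-1.43), Tspan8 (-1.95) and BC035947 (-1.03) were lower as well, and Tspan8 lost its call without sham mouse 1 (adjusted p = 0.079). Kcnip4, a potassium channel partner that is also in the failed-repair list, had 16.6, 60.1, 17.3 and 180 CPM in positive members against 102, 2288, 95 and 316 CPM in negative ones. The value of 2288 CPM was 82 UMIs in the 27 negative nuclei of sham mouse 2, and the other libraries were far below it.

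Of 23 S1-S2 genes outside the gate 7 were higher and 2 lower in Slc5a2-positive members. Nox4 averaged 3721 ± 1055 CPM in positive and 2703 ± 811 CPM in negative members (log2 difference 0.50, SE 0.06, adjusted p = 9e-17), and Gatm 1354 ± 282 against 929 ± 274 CPM (0.46). Of 24 S3 genes outside the gate 9 were lower and none higher (median log2 difference -0.41, against 0.01 over all genes), and without sham mouse 2 it was 11 lower and 1 higher. Aadat averaged 163 ± 27.6 against 282 ± 70.6 CPM, and Slc5a10, the fructose and mannose carrier, 78.6 ± 29.7 against 131 ± 25.5 CPM. Slc5a8 was lower by a log2 difference of -1.27, in 3 of 4 libraries. Of 25 transcription factors Maf was called, higher by 0.29, and its call was lost without sham mouse 1 (adjusted p = 0.0885) and with DESeq2 (adjusted p = 0.0852).

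The thick ascending limb gene Slc12a1 was also lower in positive members, at 161 ± 64.2 against 366 ± 258 CPM (log2 difference -0.72), together with Egf (-0.57, lower in 3 of 4 libraries). Without the non-surgery mouse both calls were lost (log2 differences -0.44 and -0.23, adjusted p = 0.0548 and 0.633). Magi2 was higher at 1372 ± 639 against 852 ± 489 CPM (0.64). Before thinning the positive members were shallower in all 4 libraries, with medians of 1710, 1204, 1518.5 and 1713.5 UMIs in sham mice 1, 2 and 3 and the non-surgery mouse, against 1928, 1273, 1813 and 2027 UMIs in negative members. A nucleus without a UMI of Slc5a2 at this depth may still transcribe the gene, since positive members held 3017 UMIs of it before thinning and negative members 1028. Slc5a2 is also a gate gene, so members without a UMI of it had to reach the sum of 3 with the other gate genes. The rule thus selected positive and negative members differently. The part of sampling and that of the rule in the split were not tested.

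**Figure D4:**
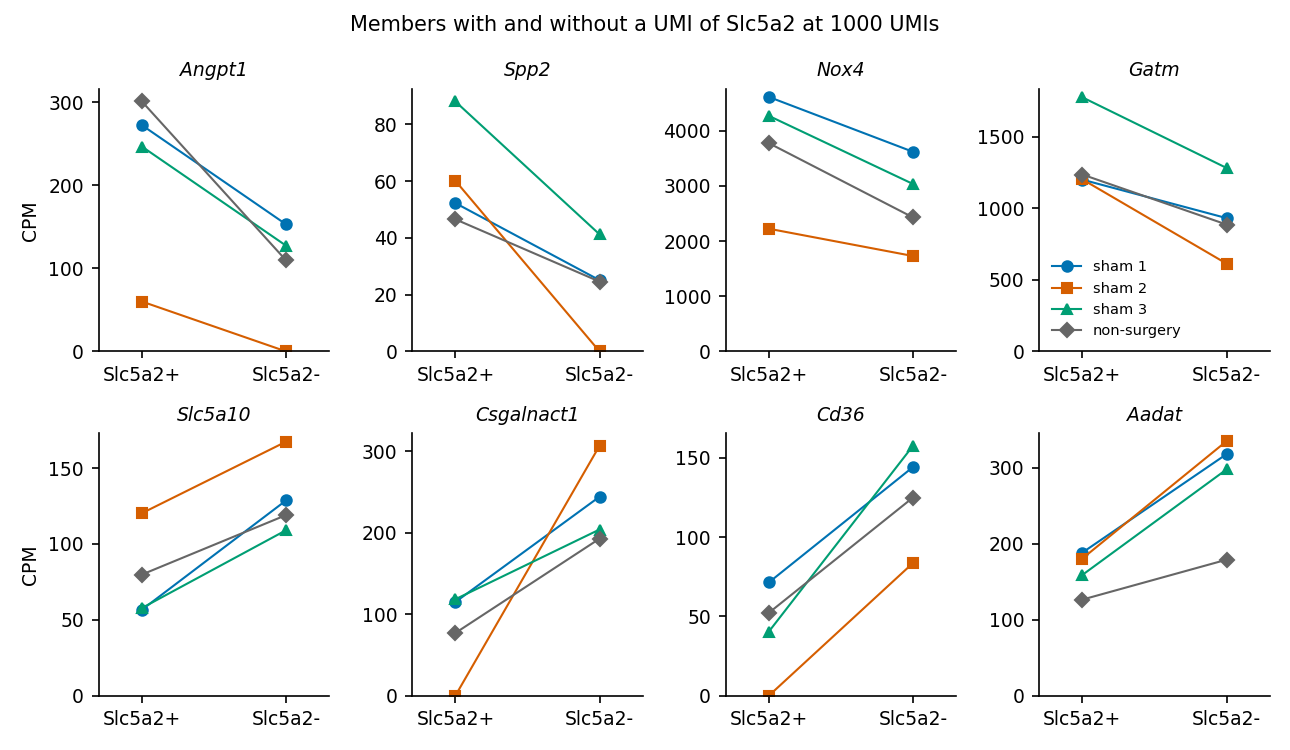
CPM of 8 genes, from unthinned counts, in members with (left) and without (right) a UMI of Slc5a2 after thinning to 1000 UMIs. Each line is 1 control library. Angpt1, Spp2, Nox4 and Gatm fall from left to right in all 4 libraries, and Slc5a10, Csgalnact1, Cd36 and Aadat climb in all 4. The values at 0 are those of sham mouse 2.

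Sham members were compared with those of the non-surgery mouse, which is 1 library and is assumed to vary like the sham libraries. Of 11901 genes edgeR called 1 higher (0.0084%) and 0 lower, against 473 at an unadjusted p under 0.05. The gene was Scand1, at 68.1, 50.7 and 70.7 CPM in sham members and 7.89 CPM in non-surgery members (log2 difference 3.12, SE 0.50, adjusted p = 0.017). It overlaps Cnbd2 on the opposite strand, and its call was lost without sham mouse 3 (adjusted p = 0.0628). Without sham mouse 1 no gene was called, without sham mouse 3 the counts were 2 and 0, and without sham mouse 2 they were 21 and 34. The number of calls thus turned on which library was left out.

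Finally the same gate was applied to the IRI libraries. With nuclei thinned to 1000 UMIs, 2.97% and 2.91% of nuclei passed at day 7 and 6.64%, 4.03% and 5.93% at day 28, against 41.8%, 6.77% and 37.1% in sham mice 1 to 3 and 32.9% in the non-surgery mouse. The means were 4.50% ± 1.71 (SD, n = 5) in IRI and 29.7% ± 15.7 (n = 4) in controls, a difference of -25.2 percentage points (p = 0.0079 in a two-sided exact permutation test, whose 126 arrangements of the libraries can give no smaller value). The groups did not overlap, but sham mouse 2, with 27 of 399 nuclei in the gate, lay only just above the highest IRI library. Reporter line, sort, tamoxifen and doxycycline differed together with injury, so their effects on this share and that of injury cannot be told apart. The barcode set, described below, also differed from the controls in every IRI library but day 28 mouse 1. In these nuclei fewer S1-S2 cells and fewer gate UMIs per cell cannot be told apart either.

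**Figure D5:**
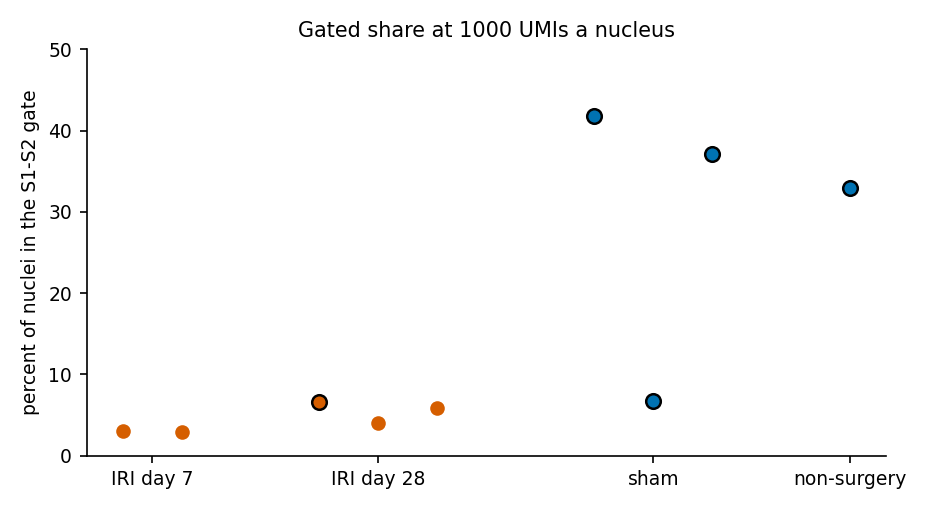
Percent of nuclei in each library that passed the S1-S2 gate after thinning to 1000 UMIs, with orange points for IRI mice, blue points for controls and a black rim where the library had the v2 set of barcodes. The 5 IRI libraries lie between 2.91% and 6.64%, and the controls between 6.77% and 41.8%.

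The IRI nuclei in the gate differed from members in many genes outside it, and injury and repair genes were among the largest rises. These fits used the unthinned gate, which 235 and 209 nuclei passed at day 7 and 133, 379 and 173 at day 28. Their median UMIs were 4000 and 2856 at day 7 and 1346, 2969 and 4683 at day 28, against 631.5 to 1809 in members. A sum of 3 UMIs is thus a looser rule in most IRI libraries. The part of depth was not tested beyond the fit on nuclei of 1000 UMIs or more. At day 28 edgeR called 1651 of 10973 genes higher (15%) and 1591 lower (14.5%), or 29.5% in all. At day 7 it called 1613 higher (14.7%) and 1959 lower (17.9%), or 32.6% in all. The labels do not say which library had which kit. Of 5 barcode starts of 7 letters known from each kit, the controls and day 28 mouse 1 had v2 starts in 23 to 40 nuclei and no v3 start, and the other 4 IRI libraries had v3 starts in 4 to 28 nuclei and no v2 start. Day 7 therefore differs from the controls in barcode set as well as in injury, and the term rests on day 28 mouse 1 alone. Reporter line, tamoxifen and doxycycline also differ between IRI and controls, so in these gene differences their effects and that of injury cannot be told apart. With that set as a term, an alternative chosen after seeing the data, 92 genes were higher and 38 lower at day 28, and 47 and 18 at day 7. With v2 libraries alone, which leaves 1 mouse at day 28, the counts were 43 and 14. Malat1 took 7.13% to 18.8% of UMIs in the gated IRI nuclei and 21% to 25.5% in members. Mitochondrial RNA took 0.0066% to 0.0654% in the gated IRI nuclei and 0.0876% to 0.209% in members. The part of RNA composition in these differences was not tested.

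Vcam1 stood at 137 and 159 CPM at day 7 and 313, 215 and 377 CPM at day 28, against 0 to 5.26 CPM in the members of the 4 controls. Its log2 difference at day 28 was 6.62 (SE 0.45, adjusted p = 5.1e-07), and 6.67 (SE 0.56) with v2 libraries alone. Havcr1, the injury marker KIM-1, had 435 and 458 CPM at day 7 and 86.2, 133 and 51.3 CPM at day 28, against at most 4.51 CPM in members. Sox9, a factor of tubule repair, stood at 25.3 and 26.0 CPM at day 7 and 27.2, 27.2 and 52.4 CPM at day 28, while members had 0 UMIs, which allows up to 0.317 CPM (3 counts over all members). Of 19 failed-repair genes 18 were higher at day 28 and 18 at day 7, with Cdh6 at 353 ± 135 CPM at day 28 against 6.46 ± 5.31 CPM in members and the copper carrier gene Cp at 476 ± 147 against 17.5 ± 5.70 CPM.

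Other genes named at day 28 included Pdpn, Kcnh8, Cd44 and Sorcs1 among the rises and Ugt1a10, Apoc3, Col6a6, Cyp4a14, Cyp4a10 and Ftcd among the falls, and at day 7 Cd44, Ptchd1 and Kcnh8 among the rises and Col6a6, Serpine3, Cyp4a14, Apoc3, Hdc and Shcbp1l among the falls. With the barcode set as a term the day 28 calls for Pdpn, Apoc3, Cyp4a14 and Cyp4a10 were lost (adjusted p = 0.195, 0.209, 0.262 and 0.0956), as were the day 7 calls for Col6a6, Serpine3, Cyp4a14, Apoc3 and Shcbp1l (adjusted p from 0.194 to 1). Shcbp1l also lost its call without day 7 mouse 1 or 2 (adjusted p = 0.108 and 0.0601). Ftcd, of histidine breakdown, stood at 40.8, 7.42 and 1.12 CPM at day 28 against 196 to 415 CPM in members (log2 difference -5.30, and -3.19 with v2 libraries alone). Of 33 fatty acid oxidation and peroxisome genes 23 were lower at day 28 and none higher, with Acaa1a at 19.4 ± 10.3 against 147 ± 48.7 CPM. Slc34a1 stood at 2142 and 2118 CPM at day 7 and 3721, 1372 and 3109 CPM at day 28, against 4322 to 6125 CPM in members (log2 difference -1.16 at day 28, adjusted p = 0.0075, and -0.72, adjusted p = 0.498, with v2 libraries alone; adjusted p = 0.0529 with nuclei of 1000 UMIs or more). Lrp2 and Hnf4a did not pass the test at day 28 (log2 differences -0.60 and -0.05, adjusted p = 0.0769 and 0.89) or at day 7 (-0.39 and -0.01, adjusted p = 0.295 and 0.977). At day 28 Lrp2 passed it with a gate of 2 UMIs (-0.68, adjusted p = 0.0437) and without day 28 mouse 1 (-0.75, adjusted p = 0.032). The day 28 counts were 942 higher and 651 lower without day 28 mouse 2, 1090 and 821 without mouse 3 and 1302 and 1029 without sham mouse 3. The day 7 counts were 911 and 759 without day 7 mouse 1 and 965 and 826 without mouse 2. Without sham mouse 2 they were 1570 and 1481 at day 28 and 1511 and 1853 at day 7.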

How the data were processed

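The deposited tables hold UMI counts per gene and nucleus, and the authors used Cell Ranger, STAR and Seurat with mm10, per the submitters' processing notes. The control table held 17455 genes in 13116 nuclei, that of the IRI mice held 19342 genes in 14622 nuclei, and 16939 genes were in both. Doublets were removed by sorter gating, per the labels' protocols, which name 10X v2 or v3 kits without saying which library had which. The barcode set was read from the first 7 letters of the barcodes. No doublet caller was run. Counts of the gated nuclei were summed per library and class. edgeR 4.0.16 (R 4.3.3) tested the sums by its quasi-likelihood F test with TMM factors, filterByExpr and the library as a block (no block between mice), with Benjamini-Hochberg adjustment at 0.05. The SE is the absolute log2 difference divided by the square root of F. Gate genes stayed in library sizes but not in the tests. CPM are UMIs per 1000000 UMIs of a sum, without TMM, so a fitted difference need not equal a ratio of CPM. Thinning drew 1000 UMIs per nucleus without replacement. It served the detection shares, the gated shares and the Slc5a2 split, while the summed counts were left unthinned. Gated shares were compared with a two-sided exact permutation test over libraries.

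The members, the gene lists and the tests were chosen with earlier results of these data known. Genes were named by rule: the 8 largest rises and 8 largest falls (6 for the other comparisons) at a mean of 20 CPM or more in either group and, within libraries, the same direction in all 4, up to 4 genes per list by adjusted p, and Lrp2, Slc34a1 and Hnf4a. Some genes that the rule names are not reported here. Other genes named to complete a list's count were chosen after their values were seen. All samples stayed in the groups the labels give, and each library is 1 mouse. In fits without a block the p-values measure the spread between mice. With the library as a block, the spread of levels between mice is taken out. Those p-values rest on how the difference within a library varies from mouse to mouse. In both kinds of fit edgeR estimates the spread in part from all genes together. The SE and p-value of a single gene can therefore understate its own spread between mice. Alternatives were DESeq2 1.42.0, RLE factors, no filter, gates of 2 and 5 UMIs, nuclei of 1000 UMIs or more, the block added or dropped, each library left out, v2 barcodes only and, added later, the barcode set as a term and the other nuclei without the S3 gate. The models were first run on simulated sums that held no library effect and no selection by a gate, so the simulation says nothing about those. Intervals and limits on a count of 0 cover counting error only.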

Additional observations from a re-analysis of the deposited data

Results flagged for a closer look

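Of 113 values tested in the controls, nearly all of them gene levels in members, 12 had a library set apart from the other 3. This was by Dixon's criterion at the 95% level, where chance gives about 1 in 20. Sham mouse 2 was the library set apart for the median UMIs per nucleus over all nuclei of a library (668). In members it was so for Angpt1 (36.9 CPM), Mep1b (18.4 CPM), Hnf4a (286 CPM), Ttc28 (32.3 CPM), Slc7a8 (562 CPM), Slc2a2 (115 CPM), Car14 (27.7 CPM) and Flt1 (41.5 CPM). Sham mouse 1 stood apart for Slc5a12 (5352 CPM), and sham mouse 3 for Gatm (1468 CPM) and Ugt3a1 (268 CPM).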

How the results depend on the processing

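Counts are given as higher and lower. For members against all other nuclei DESeq2 called 591 and 742, a fit with no replicate block 111 and 118, and 695 were higher without S3-gated nuclei. Against S3-gated nuclei DESeq2 called 575 and 706 and no replicate block 168 and 272. For the Slc5a2 split DESeq2 called 32 and 33, a gate of 5 UMIs 93 higher, and no replicate block 0 and 0. For sham against non-surgery, no filter gave 7 and 12, a gate of 5 UMIs 8 and 10, and nuclei of 1000 UMIs or more 6 and 13. With v2 barcodes only, day 28 had 43 and 14, and with the barcode set as a term 92 and 38. At day 7 the term gave 47 and 18. Slc5a12 held out of the gate differed by 1.55 with no replicate block (adjusted p = 0.145). Leaving out 1 library gave 750 to 1063 higher and 1047 to 1407 lower for all other nuclei, 677 to 1010 and 804 to 1182 for S3, 68 to 141 and 71 to 165 for the Slc5a2 split, 0 to 21 and 0 to 34 for sham, 942 to 1990 and 651 to 2047 at day 28 and 911 to 1863 and 759 to 2238 at day 7, and a share difference of -32.8 to -21.1 points.

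Near 0, differences that never passed the test changed sign. Against S3-gated nuclei Hnf4a gave -0.0041 with a gate of 5 UMIs, -0.015 with nuclei of 1000 UMIs or more and -0.012 to 0.13 with 1 library left out, and Slc12a1 0.10 with DESeq2, 0.046 with no replicate block and -0.17 to 0.050 with 1 library left out. Hnf4a at day 28 gave 0.012 with DESeq2, 0.0014 with RLE factors, 0.058 with a gate of 5 UMIs, 0.11 with nuclei of 1000 UMIs or more and -0.19 to 0.14 with 1 library left out. At day 7 it gave 0.056, 0.051, 0.021 and 0.13 in the same order, 0.0028 with a gate of 2 UMIs and -0.073 to 0.17 with 1 library left out, and Lrp2 0.052 with the barcode set as a term. The cause was not tested.

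Sham and IRI mice share replicate numbers, but the numbers did not pair them: deviations of same-numbered sham and day 28 mice correlated at -0.0715, -0.0522 and 0.0316. With the number as a replicate block and the non-surgery mouse left out, 997 genes were higher and 1092 lower at day 28, and 1071 and 1320 at day 7; the part of each change was not separated. The fit on nuclei of 1000 UMIs or more was not run for the Slc5a2 split, which uses those nuclei already, nor v2 barcodes at day 7, where no library has them. Depth in sham mouse 2, the single non-surgery mouse and the 2 to 3 IRI mice per time limit what could be called.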
